A study of Homo sapiens with 9 samples.

Results

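The subject of this report is a set of 34 transcription start sites whose nascent RNA signal was raised by ultraviolet light within 3 h and was still raised at 16 h. They are 34 of the 7936 start-site identifiers present in all 9 libraries. Signal here is the deposited coverage averaged over the 200-bp bins of the first 10 kb after the start, and each change is a difference of log2(signal + 0.5). The members were chosen by measured values: a member had a change of 0.8 or more at 3 h in every line, a mean 3 h signal of 2 or more, and a change of 1 or more at 16 h in both the knockout and the wild type. The 16 h library of the rescue line was not used for this choice, although the rescue mock library entered it through the 3 h step.

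The study used bromouridine sequencing (BrU-seq), in which a short pulse of the uridine analogue bromouridine marks newly made RNA that is then captured with an antibody and sequenced. The cells were human RPE1 cells, an established line of retinal pigment epithelium, and all 3 lines carried the background labelled iCas9 p53/puro-dKO. The first line was STK19-KO (here KO), the second was STK19-KO with STK19-TY put back (here rescue), and the third was WT, with no change of STK19 named. UV-C was given at 12 J/m2, with cells of each line taken 3 h or 16 h later, and other cells were mock-treated. Labelling lasted 30 min with 2 mM bromouridine. The labels leave unclear if 3 h and 16 h mark the beginning or the end of labelling, and its start was taken as 2.5 h and 15.5 h. Each line and condition had 1 library, so a difference between 2 libraries has no replicate check. Nothing in the labels says that a line is more than 1 clone, and the control line shares the p53 label with the others, so no line here represents cells with intact p53.

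UV-C light leaves bulky lesions in DNA, and an RNA polymerase II that meets one in the transcribed strand stops there. Transcription-coupled repair clears such polymerases and lesions, and STK19 has been described as one of its factors. Since the chance of meeting a lesion grows with distance, the beginning of a transcription unit is read more often than its distant end soon after irradiation. Alongside this block, irradiated cells start or raise transcription of a set of stress-response genes, some only briefly and some for many hours.

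No gene name can be given for any member. The files carry transcript identifiers only, and 0 of the 34 members, like 0 of the 7936 identifiers, matched the RefSeq gene table used here. Members are therefore numbered from 1 to 34 by their mean 16 h signal over the 3 lines, and 4 are given with their identifiers. Neither the loss of STK19 signal in the KO line nor markers of retinal pigment epithelium could be checked without names. Sequencing depth, read from the smallest step of the values in each file, spanned a 13.1-fold range, with KO at 3 h the shallowest library and WT at 16 h the deepest. The summed signal of the highest library was 14.4% above that of the lowest, since the authors scaled the libraries to a common total.

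Of the 7936 identifiers, 261 were induced at 3 h in all 3 lines. These divided at 16 h into the 34 members, 113 that stayed at a change of 1 or more in KO only, 11 that did so in WT only and 103 that did so in neither. All 34 members also had a mean signal of 0.5 or more over the 9 libraries, the filter that left 3996 identifiers for the comparisons with all identifiers below. Just inside the WT 16 h limit of 1, 2 members had changes of 1.03 and 1.04, and just outside it 2 identifiers had 0.99 and 0.97. For the KO 16 h limit the nearest members had 1.04 and 1.05, and the nearest identifiers outside had 0.99 and 0.98. The lowest 3 h changes were 0.82 and 0.83 inside the limit of 0.8, and 0.79 and 0.78 outside it. The lowest mean 3 h signals were 2.79 and 2.90 inside, against 1.30 and 0.525 outside. The limits thus fell within a continuous run of 16 h and 3 h changes, and few identifiers lay near the limit on signal.

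By median, the members had less mock signal than the other identifiers induced at 3 h. Their median mock signal was 2.13 in KO, 1.56 in rescue and 2.29 in WT. Over the 227 other identifiers induced at 3 h, the median mock signal was 7.28 in KO, 7.02 in rescue and 9.20 in WT. Among the 3996 identifiers, the members had a median mock percentile of 30.9 in KO, 25.6 in rescue and 32.4 in WT. The rule favours a low mock signal, so this place in the ranking is a description of what was chosen.

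Across the time course the members' median signal in KO was 2.13 in mock, 6.05 at 3 h and 9.51 at 16 h. In rescue it was 1.56 in mock, 5.08 at 3 h and 6.34 at 16 h. In WT it was 2.29 in mock, 7.89 at 3 h and 7.24 at 16 h. The highest median was thus the 16 h one in KO and rescue, and the 3 h one in WT, as the values were deposited. The median 3 h change was 1.13 in KO, 1.31 in rescue and 1.61 in WT. The median 16 h change was 1.51 in KO (1.04 to 3.61), 1.60 in rescue (0.51 to 3.18) and 1.31 in WT (1.03 to 2.11). The changes in KO and WT at 16 h, and those of all lines at 3 h, are what chose the members. At these limits the 16 h change was 1 or more in 22.5% of the 3996 identifiers in KO and in 12.1% in WT.

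**Figure D1:**
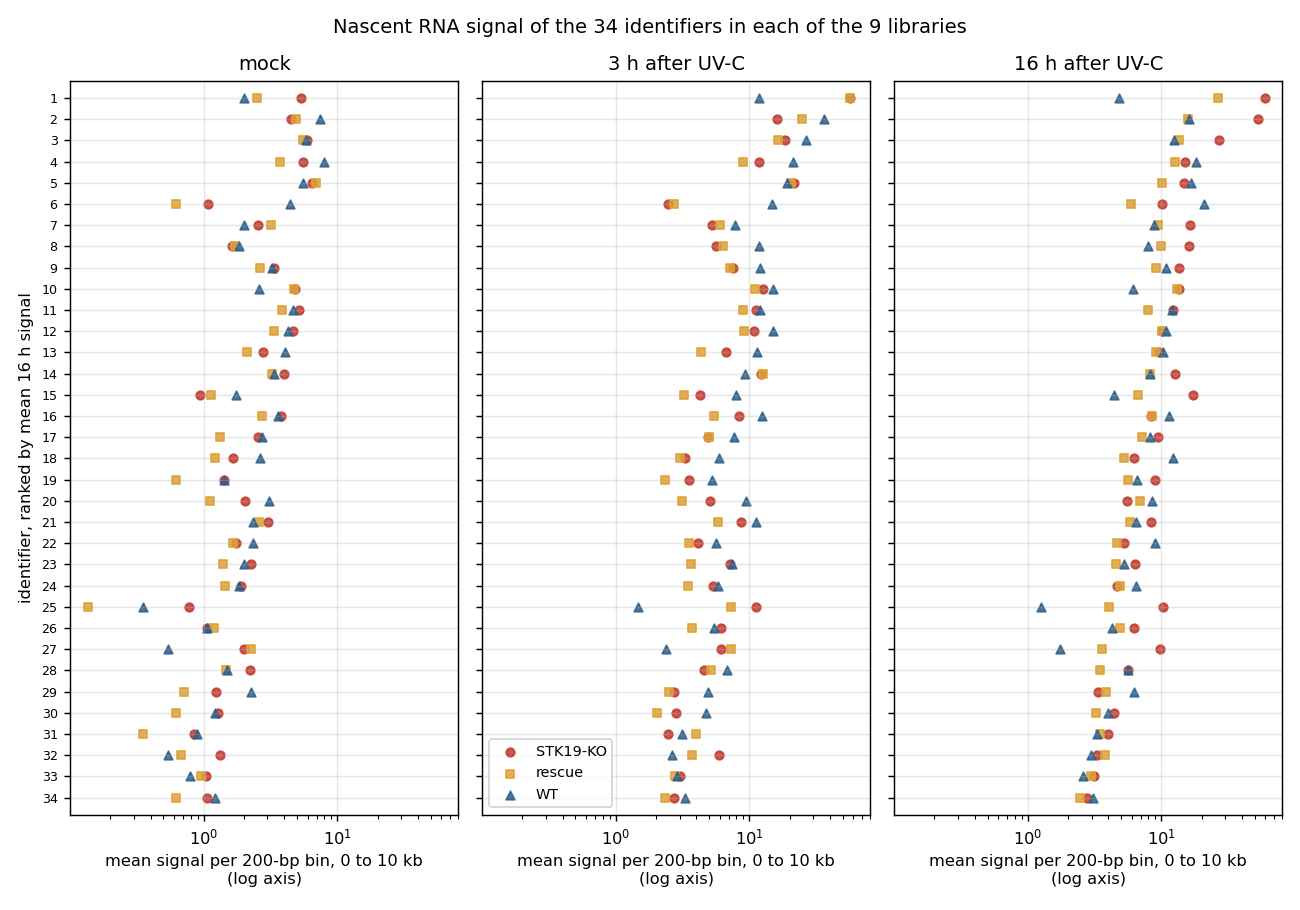
Nascent RNA signal of each of the 34 members (rows, ranked by mean 16 h signal) in mock, at 3 h and at 16 h, as mean deposited signal per 200-bp bin from 0 to 10 kb on a log axis. Points are single libraries of KO (circles), rescue (squares) and WT (triangles). The cloud lies further right at 3 h and 16 h than in mock, and members 1, 2, 15, 25 and 27 lie further right in KO than in WT at 16 h by the widest margins.

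Member 1 (uc002ouo.2) had the highest 16 h signal of the members in KO, in rescue and in the mean of the 3 lines, though not in WT. In KO its signal was 5.34 in mock, 56.3 at 3 h and 59.4 at 16 h. In rescue it was 2.50 in mock, 56.5 at 3 h and 26.7 at 16 h. In WT it was 2.00 in mock, 11.8 at 3 h and 4.82 at 16 h. The 3 h signal was nearly equal in KO and rescue, and lower in WT. At 16 h the order was KO, rescue, WT, with a change of 3.36 in KO, 3.18 in rescue and 1.09 in WT.

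Member 2 (uc002lus.3) had a different course in KO. There its signal was 4.49 in mock, 16.0 at 3 h and 52.7 at 16 h, so the 16 h library was the highest of the 9. In rescue the signal was 4.92 in mock, 24.7 at 3 h and 15.8 at 16 h. In WT it was 7.47 in mock, 36.0 at 3 h and 16.0 at 16 h. Rescue and WT thus had their highest signal at 3 h and were close to each other at 16 h. Its 16 h change was 3.42 in KO, 1.58 in rescue and 1.05 in WT.

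Member 5 (uc001mlf.5) and member 27 (uc002yfj.4) had the smallest 16 h changes in rescue. For member 5 the KO signal was 6.45 in mock, 21.6 at 3 h and 14.9 at 16 h. Its rescue signal was 6.91 in mock, 20.6 at 3 h and 10.1 at 16 h. Its WT signal was 5.52 in mock, 19.1 at 3 h and 16.8 at 16 h. All 3 lines had similar signal in mock and at 3 h, and the rescue line was the lowest at 16 h. For member 27 the KO signal was 2.02 in mock, 6.15 at 3 h and 9.74 at 16 h. Its rescue signal was 2.26 in mock, 7.22 at 3 h and 3.62 at 16 h. Its WT signal was 0.54 in mock, 2.39 at 3 h and 1.74 at 16 h. Here only KO had more signal at 16 h than at 3 h.

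Other members had more similar 16 h changes in the 3 lines. Member 6 had KO signals of 1.07 in mock, 2.44 at 3 h and 10.0 at 16 h. Rescue gave 0.63, 2.73 and 5.95 at those times, and WT gave 4.44, 14.7 and 20.8, the highest of the lines throughout. The signal was still mounting between 3 h and 16 h in all 3 lines. Member 33 was the most even of the 34, with a 16 h change of 1.23 in KO, 1.25 in rescue and 1.26 in WT (SD over lines 0.01). Its 16 h signal was 3.13 in KO, 2.95 in rescue and 2.58 in WT.

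The 16 h rescue library was the only one that took no part in the choice. In it 31 of the 34 members (91.2%) had a change of 1 or more, against 24.6% of the 3996 identifiers. The 3 below that limit were member 5 at 0.51, member 27 at 0.58 and member 11 at 0.97. Rescue signal at 16 h was above rescue mock in 34 of 34 members, against 74.6% of the 3996 identifiers. Because low rescue mock signal helps an identifier pass the 3 h step, the other identifiers induced at 3 h, which passed the same step, are the closer comparison. Of those that stayed up in KO only, 49 of 113 (43.4%) had a rescue change of 1 or more, and of those in WT only 5 of 11 (45.5%) did. Of those that stayed up in neither line, 16 of 103 (15.5%) did. The median rescue change was 1.60 for the members, 0.89 for those up in KO only, 0.87 for those up in WT only and 0.26 for those up in neither. With 1 rescue library at 16 h, these shares were not tested.

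**Figure D2:**
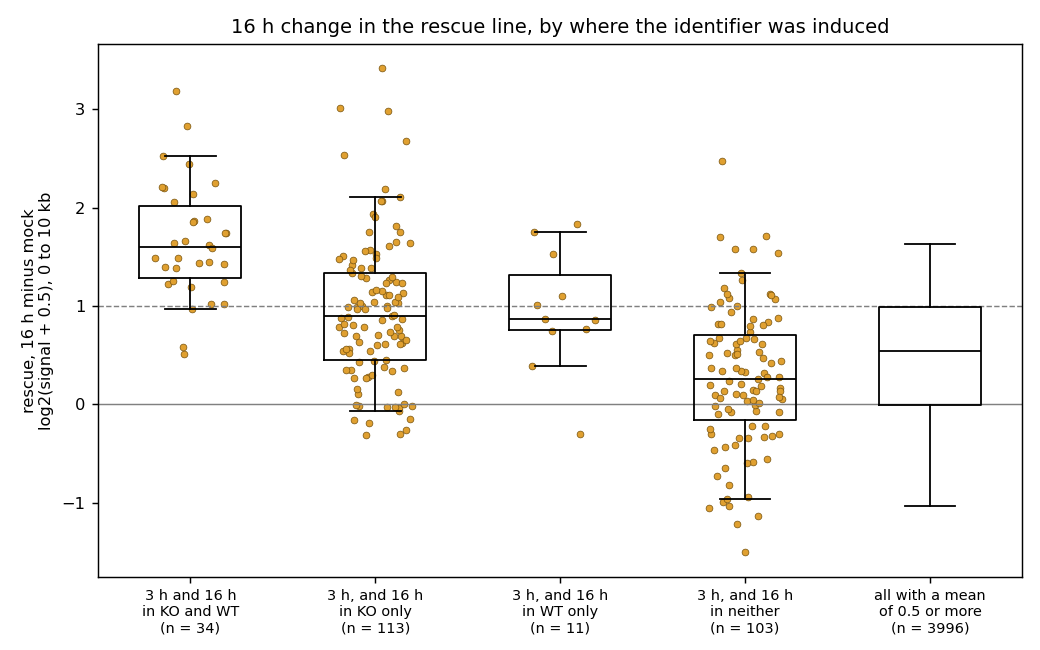
Change of signal in the rescue line at 16 h against rescue mock, as the difference of log2(signal + 0.5) over 0 to 10 kb, for identifiers induced at 3 h, divided by where they were still up at 16 h, and for the 3996 identifiers. Points are identifiers, boxes show the median and quartiles, whiskers reach the 5th and 95th percentiles, and the dashed line marks a change of 1. Members have the highest median, 1.60, and 31 of 34 lie at or above the dashed line.

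How the libraries are scaled bears on these counts. The median change over the 3996 identifiers at 16 h was 0.42 in KO, 0.55 in rescue and 0.09 in WT as deposited. A trimmed-mean scaling brought these to 0.05, 0.15 and 0.08, and the members' own medians to 1.14 in KO, 1.17 in rescue and 1.30 in WT. Under it 24 of the 34 members had a rescue change of 1 or more, against 10.2% of the 3996 identifiers, and 34 of 34 were still above mock. When the rule itself was applied to the rescaled values, 13 identifiers met it, all of them among the 34.

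From 3 h to 16 h the members held their signal, and the order of the lines depended on the scaling. In KO the 16 h signal was at or above the 3 h signal in 26 of 34 members, against 62.9% of the 3996 identifiers. In rescue it was so in 23 of 34, against 67.1%, and in WT in 11 of 34, against 35.7%. The rescue and WT shares were near those of all identifiers. The median 16 h minus 3 h difference of the members was 0.26 in KO, 0.31 in rescue and -0.15 in WT. Under trimmed-mean scaling it was 0.09 in KO, 0.03 in rescue and 0.13 in WT, so the WT median changed sign. The counts were then 18 of 34 in KO, 18 in rescue and 23 in WT, against 54.7%, 55.8% and 49.6% of the 3996 identifiers in the same order. For the 227 other induced identifiers the medians were -0.27 in KO, -0.87 in rescue and -1.53 in WT, with 16 h at or above 3 h in 77, 29 and 4 of them in the same order. The rule asked for high 16 h signal in KO and WT, so for these lines the gap between members and the other induced identifiers follows from the choice.

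Setting KO against WT over the first 10 kb gave no clear direction. KO had the larger 16 h change in 21 of 34 members, against 60.6% of the 3996 identifiers, and under trimmed-mean scaling in 11 of 34, against 46.0%. The median KO minus WT difference was 0.23 for the members and 0.24 for the 3996 identifiers. Among the members it ran from -0.67 to 2.47 (SD 0.83, n = 34 members). KO exceeded WT by 1 or more in 6 members, numbers 1, 2, 3, 8, 15 and 25, against 21.6% of the 3996 identifiers. WT exceeded KO by as much in 0, against 9.36%. The rule held KO to a change of 1 or more, and the largest WT change of a member was 2.11. The choice thus left little room for such a WT excess, and nothing is read from the 0.

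Member 15 had the widest gap. Its KO signal was 0.94 in mock, 4.29 at 3 h and 17.1 at 16 h. Its rescue signal was 1.14 in mock, 3.22 at 3 h and 6.73 at 16 h. Its WT signal was 1.73 in mock, 7.93 at 3 h and 4.41 at 16 h. WT was the highest line in mock and at 3 h, and the lowest at 16 h. The rescue change at 16 h lay between those in KO and WT in 15 of 34 members, against 42.2% of the 3996 identifiers. It was below that in KO by 1 or more in 4 members, numbers 2, 7, 15 and 27, against 4.8% of the 3996 identifiers. The same held in 48 of 113 identifiers up in KO only, 0 of 11 in WT only and 7 of 103 in neither. The rule held KO, not rescue, to a change of 1 or more at 16 h, so the choice favours rescue values below KO. The rescue change was above that in WT in 23 of 34, against 71.6%.

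Differences that the first 10 kb as a whole did not show appeared when it was divided and when greater distances were taken. Neither coordinates nor lengths of the transcription units are known here, so signal far from a start can belong to another unit. The deposited windows reach 100 kb to either side of the start, and the change was taken in steps of distance. All of these values come from the libraries that chose the members, other than rescue at 16 h, so they are given as a description with no test. At 16 h in KO the members' median change was 1.96 from 0 to 1 kb, 1.59 from 1 to 5 kb and 1.5 from 5 to 10 kb. It was 1.04 from 10 to 25 kb, 0.58 from 25 to 50 kb and -0.08 in the last stretch, out to 100 kb. The KO change was thus largest at the start and had a median near 0 in the farthest step.

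WT had a different profile at 16 h. Its median change was 0.49 from 0 to 1 kb, 1.43 from 1 to 5 kb and 1.70 from 5 to 10 kb. It was 1.58 from 10 to 25 kb, 1.43 from 25 to 50 kb and 0.66 in the last stretch. The WT change was thus small at the very start and remained above 1 out to 50 kb. Rescue had 1.04 from 0 to 1 kb, 1.77 from 1 to 5 kb, 1.51 from 5 to 10 kb, 1.12 from 10 to 25 kb, 0.64 from 25 to 50 kb and 0.11 from 50 to 100 kb. Beyond 10 kb the rescue medians lay nearer to those in KO than to those in WT.

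**Figure D3:**
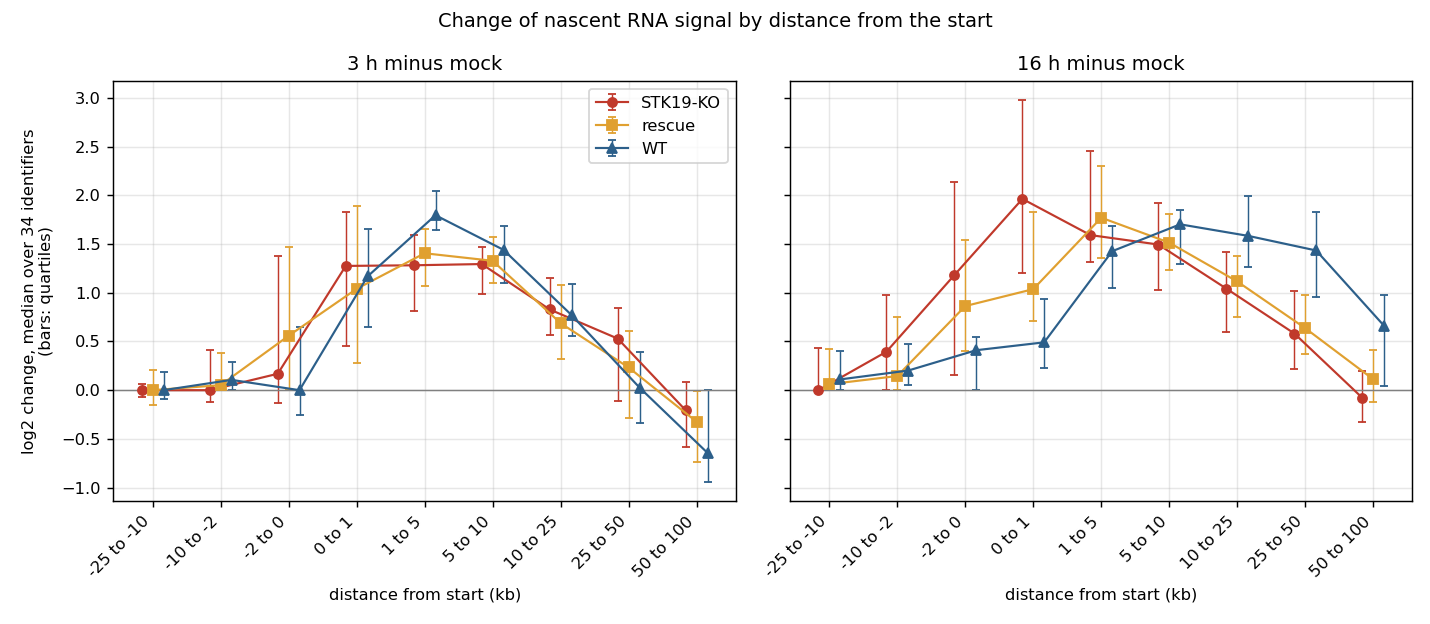
Median change over the 34 members by distance from the start (kb), at 3 h (left) and 16 h (right) against each line's own mock, as the difference of log2(signal + 0.5). Symbols are medians for KO, rescue and WT and bars are quartiles over members, which are not replicates. At 16 h the KO median is 1.96 from 0 to 1 kb and 0.58 from 25 to 50 kb, while the WT median is 0.49 and 1.43 there.

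Member by member, KO had a larger 16 h change than WT from 0 to 1 kb in 32 of 34, against 73.8% of the 3996 identifiers. The median difference there was 1.29 for the members and 1.06 for the 3996 identifiers. It was 2.19 for the identifiers up in KO only, with KO larger in 106 of 113, and 1.46 for those up in neither line, with KO larger in 95 of 103. The excess at the start was thus found in both of these sets as well. The choice of the KO only set favours such an excess, and the identifiers up in WT only were not examined by distance. Farther out the order of KO and WT turned. From 10 to 25 kb the change was larger in WT than in KO in 27 of 34 members, against 69.9% of all. WT also had the larger change from 25 to 50 kb in 29 of 34, against 67.7%. In the stretch from 50 to 100 kb this held in 26 of 34, against 62.4%. The median KO minus WT difference from 25 to 50 kb was -0.90 for the members and -0.34 for the 3996 identifiers. For the identifiers that stayed up in KO only it was -0.02, and for those up in neither line it was -0.27. Both of these sets were chosen with a WT change under 1 over the first 10 kb, where the members needed 1 or more. The choice thus favours a larger WT gain in the members. From 50 to 100 kb the median KO minus WT difference was -0.58 for the members and -0.14 for the 3996 identifiers. There it was 0.04 for those up in KO only, with WT larger in 54 of 113, and -0.27 for those up in neither, with WT larger in 77 of 103. The members' share in that step was thus close to that of the last set. Under trimmed-mean scaling the rescue median from 50 to 100 kb was -0.07, and the counts were 31 of 34 larger in KO from 0 to 1 kb, and 30, 30 and 28 of 34 larger in WT in the 3 farther steps.

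Single members show the same turn. Member 6 had a 25 to 50 kb signal in KO of 0.38 in mock, 1.09 at 3 h and 1.89 at 16 h. In rescue it had 0.38 in mock, 0.90 at 3 h and 1.2 at 16 h. In WT it had 1.63 in mock, 1.11 at 3 h and 11.6 at 16 h. All 3 lines were above mock there at 16 h, WT by the most, and WT alone was below mock at 3 h. Member 5 had a 50 to 100 kb signal at 16 h of 2.50 in KO, 4.12 in rescue and 7.79 in WT, against mock values of 4.70, 5.06 and 3.77. In that step WT was above its mock and both other lines were below theirs.

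Some members ran against this pattern. Members 18 and 32 had a larger 0 to 1 kb change in WT. Member 18 had 1.51 in KO, 3.65 in rescue and 7.24 in WT at 16 h, against mock values of 1.29, 1.90 and 2.98. Member 1 had 19.4 in KO, 7.85 in rescue and 0.80 in WT from 25 to 50 kb at 16 h, against 0.83, 0.55 and 0.41 in mock. Its window from 25 to 50 kb thus followed the order of its first 10 kb. From 10 to 25 kb, however, its 16 h signal was only 0.40 in KO, 0.57 in rescue and 0.10 in WT. Its profile also matched those of other identifiers induced at 3 h, so its signal from 25 to 50 kb cannot be assigned to this start. Members 2, 15, 25 and 31 were the others with a larger change in KO from 25 to 50 kb. From 50 to 100 kb, 16 h signal was above mock in 14 of 34 members in KO, 22 in rescue and 26 in WT, against 45.6%, 55.8% and 59.2% of the 3996 identifiers in the same order.

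**Figure D4:**
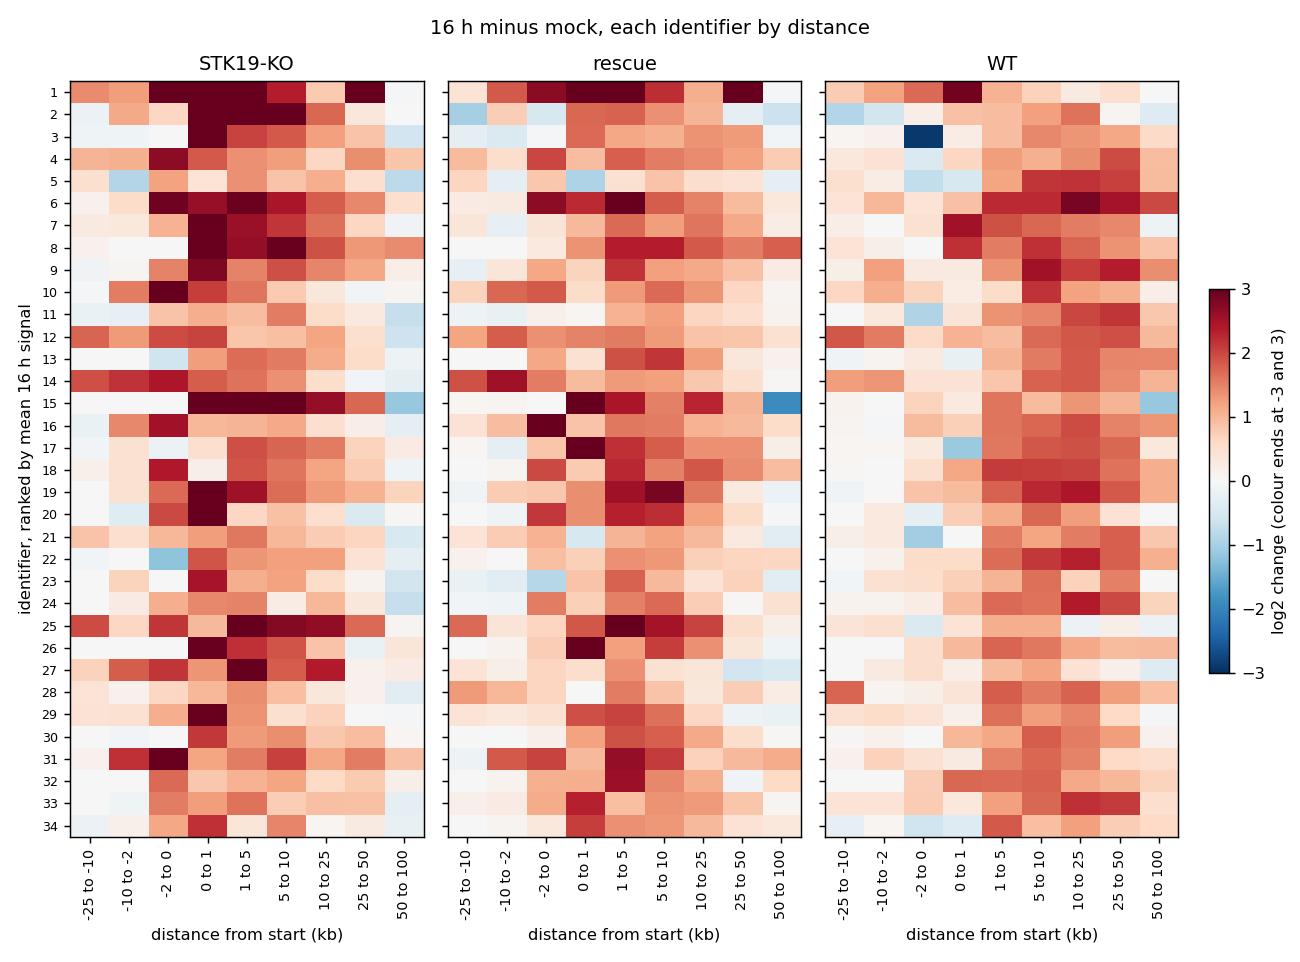
Change at 16 h against own mock for each of the 34 members (rows) by distance from the start in kb (columns), in KO, rescue and WT. Red is a gain and blue a loss on the scale of log2(signal + 0.5), and the colour ends at -3 and 3. By median, the KO change is largest from 0 to 1 kb (1.96) and the WT change from 5 to 10 kb (1.70). Single members differ: in WT, members 1 and 7 have 2.89 and 2.52 from 0 to 1 kb, and member 6 has 2.85 from 10 to 25 kb.

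At 3 h WT had the largest median from 1 to 5 kb and the smallest beyond 25 kb. From 0 to 1 kb the median change was 1.28 in KO, 1.04 in rescue and 1.17 in WT. The median change from 1 to 5 kb was 1.28 in KO, 1.41 in rescue and 1.80 in WT. From 25 to 50 kb it was 0.53 in KO, 0.23 in rescue and 0.03 in WT. From 50 to 100 kb it was -0.21 in KO, -0.32 in rescue and -0.64 in WT. In the farthest step the median was thus below 0 in all 3 lines. Over the 3996 identifiers the 3 h median from 1 to 5 kb was 0.10 in KO, 0.20 in rescue and 0.50 in WT, with WT again the largest. Their medians from 25 to 50 kb were -0.09, -0.15 and -0.13, and from 50 to 100 kb -0.09, -0.12 and -0.09. There rescue, not WT, was the smallest. Upstream of the start, from 2 kb to 0, the members' 16 h median was 1.18 in KO, 0.86 in rescue and 0.41 in WT. From 25 to 10 kb upstream it was 0.00, 0.06 and 0.11. The median signal there was 0.03 in KO mock and 0.08 in KO at 16 h, and 0.05 and 0.13 in WT. Such values lie far under the 0.5 added before the log, so a change there would be largely hidden.

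The share of the signal from 0 to 100 kb that fell in the first 10 kb does not depend on how a library is scaled. In KO the members' median share was 15.7% in mock, 31.2% at 3 h and 37.0% at 16 h. In rescue it was 15.4% in mock, 38.3% at 3 h and 29.2% at 16 h. In WT it was 20.4% in mock, 53.2% at 3 h and 19.6% at 16 h. The WT share was thus back near mock at 16 h, while the KO and rescue shares were not. At 16 h the share was above mock in 33 of 34 members in KO, 33 in rescue and 20 in WT, against 68.5%, 65.3% and 36.3% of the 3996 identifiers in the same order.

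The median 16 h change of the share was 15.6 percentage points in KO, 10.6 in rescue and 1.24 in WT. Over the 3996 identifiers it was 4.66 in KO, 2.74 in rescue and -2.44 in WT. The members thus had larger positive shifts than the median identifier in every line, as the rule's demand for gain in the first 10 kb favours. Between lines, the 16 h shift was larger in KO than in WT in 32 of 34 members, against 73% of the 3996 identifiers, with a median difference of 15.2 points (7.65 for the 3996). It was larger in rescue than in WT in 30 of 34, against 72.6%, and larger in KO than in rescue in 24 of 34, against 58.7%. At 3 h the order was the opposite, with a median shift of 12.5 points in KO, 19.4 in rescue and 29.3 in WT. Over the 3996 identifiers the 3 h shift was 2.71 points in KO, 4.16 in rescue and 6.09 in WT, so this order was not particular to the members.

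**Figure D5:**
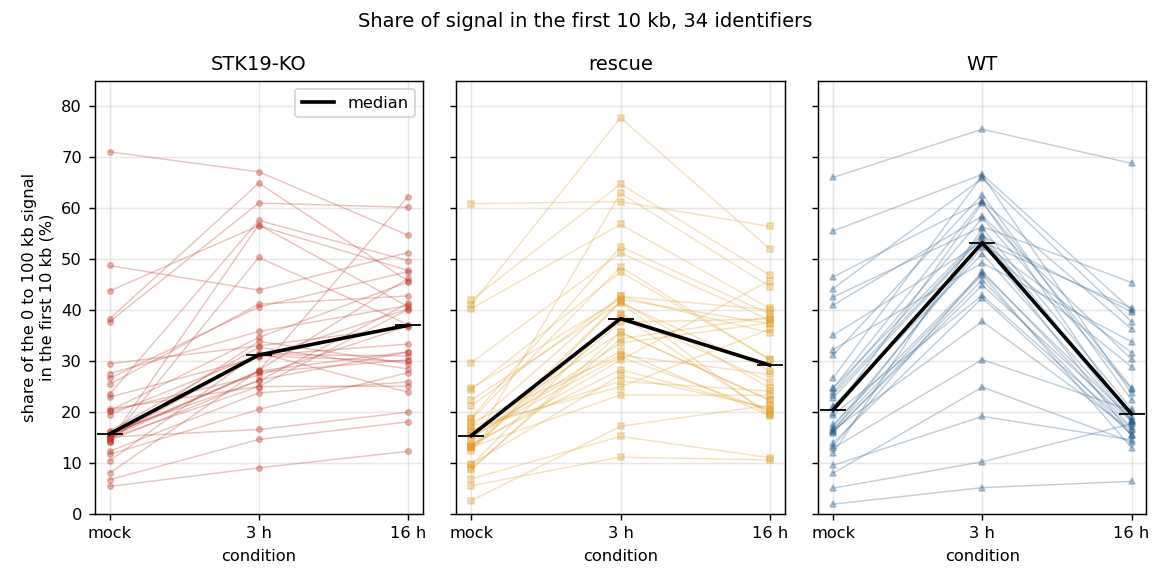
First 10 kb as a percentage of all signal from 0 to 100 kb, for the 34 members (thin lines), by condition, with 1 panel each for KO, rescue and WT. The black line is the median. In WT the median is 53.2% at 3 h and 19.6% at 16 h, while in KO it is 31.2% and 37.0%.

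Member 2 illustrates the shift. Its share in KO was 14.9% in mock, 28.0% at 3 h and 62.3% at 16 h. In rescue it was 12.9% in mock, 37.6% at 3 h and 38.3% at 16 h, and in WT it was 23.4%, 54.6% and 39.7%. Its WT share was thus still above mock at 16 h, unlike the WT median. Member 5 had shares in KO of 15.4% in mock, 27.8% at 3 h and 30.2% at 16 h. In rescue it had 15.2%, 30.8% and 20.2%, and in WT 16.4%, 37.8% and 16.4%, so here WT did return to its mock share. Member 1 had most of its signal in the first 10 kb throughout, between 54.7% and 75.5% in the 9 libraries.

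In the mean of the 9 libraries, most members had their highest signal close to the start. The highest 1-kb window of the first 100 kb lay within 5 kb of the start in 27 of 34 members (79.4%), against 68.7% of the 227 other induced identifiers and 50.7% of the 3996. Signal from 10 to 2 kb upstream was under 0.1 times that of the first 10 kb in 26 of 34 (76.5%), against 69.6% and 55.3%. Closer in, the 2 kb upstream were under 0.1 times that level in 12 of 34 (35.3%), against 37.9% and 26.2%, so most members had some signal just before the start. Signal reached 0.5 or more from 25 to 50 kb in 32 of 34 (94.1%), against 81.5% and 70.9%. In 7 of 34 (20.6%) the 2 kb upstream held at least as much signal as the first 10 kb, against 17.2% and 22.9%, so neighbouring or antisense transcription can enter some of these values.

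Windows of nearby starts can hold the same signal. Profiles were compared at every shift, in both orientations, and taken as shared where they correlated at 0.95 or more over at least 50 kb. By this measure 0 pairs of members shared a window, so the 34 were counted as separate. Members 1, 20, 25 and 27 each shared one with another identifier induced at 3 h, in 6 pairs. Members 20 and 27 matched a partner in mirror image (r = 0.95 and r = 0.99 over shared bins). Such a match can arise where values hold signal of both strands, and that of member 20 lay at the limit of 0.95. Members 1 and 25 matched partners in the same orientation, over up to 875 and 905 bins. In each of these cases the values may hold signal of a partner and cannot be taken as the member's alone.

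Across all identifiers, limma was fitted with line as a block, and lines served in place of replicates. At 16 h against mock, 790 of 3996 identifiers were higher (19.8%) and 288 lower (7.21%) at an adjusted p under 0.05. At 3 h, 487 were higher (12.2%) and 246 lower (6.16%). Trimmed-mean scaling changed these splits to 458 higher and 488 lower at 16 h, and to 346 higher and 352 lower at 3 h. All 34 members were called higher at both times, which the choice of members largely fixes, so nothing is read from it.

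A fit with a separate KO response left 2 residual degrees of freedom. It called 0 of 3996 identifiers (0%) at an adjusted p under 0.05 by limma, with 165 (4.13%) at an unadjusted p under 0.05. Of the members, 0 were called. The rule used the KO and WT libraries of this contrast, so no p-value is given for single members. In simulated libraries of this size the KO term recovered 11 of 100 changes of 4-fold and 1 of 100 of 2-fold, so most differences of this kind could not be detected in these 9 libraries.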

How the data were processed

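BrU-seq was done on 9 libraries, 1 for each of 3 lines and 3 conditions, and groups were taken from the sample titles. Per the labels' protocols, a TruSeq kit was used and fragments were read as 151 bp pairs. The submitters' processing notes list HOMER 4.8.2, STAR 2.7.7a, R 4.0.5, Trim Galore 0.6.5 and FastQC 0.11.9, and the builds hg38 and GRCh38, without saying what each was used for. The sources used here do not say how strand was handled. The deposited signal, per the file headers, is coverage in 1001 bins of 200 bp around each start, and the authors had scaled all libraries to similar totals. Tables of averaged profiles were not used here.

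Levels were log2(mean signal + 0.5). limma 3.58.1 (R 4.3.3, trend and empirical Bayes, Benjamini-Hochberg) was fitted to the 3996 identifiers with a mean of 0.5 or more. With line as a block, constant differences between lines are removed, so its p-values set the mean change against the spread of the lines' responses. The empirical Bayes step largely shared this spread over identifiers. At 16 h the standard error was 0.343 for member 33 and 0.344 for member 1, whose SDs over lines were 0.01 and 1.26. That spread may hold technical differences, and it is not a spread between separate cultures. In the fit with a separate KO response, it rests on WT and rescue alone. On simulated data with 100 changes of each size, the 16 h fit recovered 99 of 4-fold and 52 of 2-fold, with 5 false calls, and the 3 h fit 100 and 44, with 4 false calls. Other tools were Python 3.11.15, numpy 2.4.6 and pandas 2.3.3.

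The members and lists were chosen with earlier results of these data known. Identifiers were printed for the 2 members with the highest rescue 16 h signal and the 2 with the smallest rescue 16 h change, and other members singled out by number were picked after their values were seen. Gene lists were not used because no identifier matched a symbol. Alternatives tried were the pseudocount, window, scaling, thresholds, filters, lines and blocks. No sequence is shown.

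Values behind a member's first 10 kb rested on between 25 and 577 steps of coverage in KO at 3 h, the shallowest library, and between 168 and 2791 in WT at 16 h. Mock support was thinner for some members. Member 25 rested on 5 steps in rescue mock and 13 in WT mock, and member 31 on 13 in rescue mock. The changes of such members thus rest on few steps. Coverage steps are not counts of independent reads, so no counting interval is given.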

Additional observations from a re-analysis of the deposited data

Results flagged for a closer look

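From 50 to 100 kb beyond the start, the members' median 16 h change was -0.0796 in KO and 0.66 in WT, so the medians of these lines had opposite signs. In the same stretch it was -0.0796 in KO and 0.11 in rescue, also of opposite sign. The 3996 identifiers had medians of -0.02 in KO, 0.04 in rescue and 0.06 in WT there, and those induced at 3 h but up in neither line at 16 h had -0.17, 0.02 and 0.11, so these signs are not particular to the members. With 1 library per line and condition the difference was not tested. Under trimmed-mean scaling the medians were -0.38 in KO, -0.07 in rescue and 0.65 in WT, so the KO and WT medians kept opposite signs and the rescue median took that of KO.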

How the results depend on the processing

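The number of identifiers that met the rule was 34, and it was 4 with a pseudocount of 2, 13 with trimmed-mean scaling, 7 with a 16 h limit of 1.5, and 61 with KO at 3 h left out of the rule, which also drops a criterion. The share of members with a rescue change of 1 or more, 91.2%, was 100% with a pseudocount of 2, 75.9% over the first 5 kb, 69.2% with trimmed-mean scaling and 100% with the limit of 1.5. The share with a larger 16 h change in KO than in WT, 61.8%, was 100% of 4 members with a pseudocount of 2, 85.7% of 7 with the limit of 1.5 and 47.8% of 23 over the first 25 kb, which turns the majority. The 16 h fit called 1078 identifiers, but 689 over the first 5 kb, 324 without a filter, 349 with KO left out, 302 with rescue left out and 557 with no line block. The 3 h fit called 733, but 106 without a filter, 460 with WT left out, 349 with KO left out, 227 with rescue left out, 371 with no line block and 1394 on the contrast's libraries alone. The KO-specific fit called 0, but 1 with trimmed-mean scaling and 102 without a filter. The causes were not tested, beyond the fewer libraries or looser filter in each setting. The share of members with a larger WT change from 25 to 50 kb stayed between 82.4% and 88.2% in alternatives chosen after seeing the data. Trimmed-mean scaling of the 16 h minus 3 h differences was also tried after the data were seen. The rule over the first 5 kb gave 29 members, of which 14 were among the 34. Over the first 25 kb it gave 23, of which 14 were among the 34, so membership depended on the window. A fit of KO against WT alone was not run, since it leaves no residual degrees of freedom. The line pairs the conditions and was the block in these fits, and the counts with no line block are given above.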
